A study of Homo sapiens with 6 samples.

Results

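The ATG8 proteins are small ubiquitin-like proteins that are joined to the lipid phosphatidylethanolamine on the growing autophagosome membrane. Cargo receptors hold a protein, an organelle or an aggregate on one side and bind an ATG8 protein on the other, so that the cargo is enclosed and delivered to the lysosome. The ATG8 family of human cells has an LC3 branch and a GABARAP branch. A receptor that is bound to ATG8 on the inner membrane is degraded with its cargo, so that receptor protein and receptor mRNA need not move together. Here, the mRNA levels of 10 of these genes were examined, out of 27216 rows in the expression table. They were taken by symbol, and all 10 had a row. The 5 ATG8 genes were MAP1LC3A, MAP1LC3B, GABARAP, GABARAPL1 and GABARAPL2, and the 5 cargo receptors were SQSTM1, NBR1, TAX1BP1, CALCOCO2 and OPTN.

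The RNA came from H1975 cells, a human lung adenocarcinoma line that carries an activating mutation of EGFR and is listed with a wild-type genotype. Parental cells (n = 3 samples) are labelled as 0 h and adapted cells (n = 3 samples) as 72 h of Osi (osimertinib, an EGFR tyrosine kinase inhibitor) at 1000 nM. The study's methods name the same concentration of Osi for other assays, and its list of compounds gives a lower one. The labels give DMEM with serum as the medium, and the study's methods give another medium, also with serum, for all its lines. Apoptotic cells were rinsed off before extraction, so the adapted samples hold the cells that stayed attached. The table names the parental columns for DMSO, and time in culture cannot be told apart from Osi. Digestion of linear RNA with RNase R is part of the labels' library protocol, and its effect on the values was not tested. The study speaks of independent experiments in general, but neither the labels nor the methods on sequencing say whether the 3 samples of a group were separate cultures. The p-values measure the spread between these samples, which may be technical.

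From their range and decimals the deposited values were read as log2(FPKM + 1). FPKM is the number of sequenced fragments of a gene scaled by its transcript length and by all fragments of the sample. Levels of different genes are compared on this scale, and whether RNase R changed some genes more than others was not tested. Read counts were not analyzed, and the depth is unknown. On the linear scale, sample totals lay between 375342 and 387753. Pearson's r across rows was 0.997 between parental samples, and adapted sample 1 stood at 0.991 from the other adapted samples, which had an r of 0.996 with each other. All 5 epithelial markers examined (EPCAM, KRT8, KRT18, KRT19 and CDH1) were high in every sample, with a summed level of 3044 to 3071 FPKM in parental and 2145 to 2295 FPKM in adapted cells. Of the lung lineage markers, NKX2-1 and NAPSA were expressed, whereas SFTPB and SFTPC stayed at or below 0.223 FPKM. Among markers of other cells, CD3E was at 0 in all samples and PTPRC at most at 0.0551 FPKM. CDH5, an endothelial cadherin, reached 3.22 FPKM, with log2 values of 0.16 to 0.27 in parental and 1.19 to 2.08 in adapted cells. PECAM1, another endothelial marker, reached 1.63 FPKM and went the other way. Its log2 values were 0.996 to 1.40 in parental and 0.0746 to 0.105 in adapted cells. Of 5 fibroblast markers only COL1A1 averaged 1 or more on the log2 scale, and of 5 immune markers only CD68. The summed fibroblast list was at 2.997 to 3.14 FPKM in parental and 8.11 to 8.89 FPKM in adapted cells, the immune list at 74.5 to 76.9 and 14.8 to 29.8 FPKM, and the 4 endothelial markers at 1.13 to 1.88 and 1.49 to 3.50 FPKM. Their part in the results was not tested.

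A property of the table touches 4 of the 10 genes and is given with every result that rests on them. Reversing the log2 and removing the 1 gave a number with 6 decimals in nearly every row. In 147 rows (0.540% of 27216), values of a single group were off this grid (all 3 values in 145 rows and 2 of the 3 in the other 2 rows). In each row, a single constant, subtracted from the 3 values of that group on the log2 scale, put all 3 on the grid. MAP1LC3A needed 0.2 in the parental samples. GABARAP, GABARAPL1 and GABARAPL2 each needed 0.65 in the adapted samples. The other 6 genes were on the grid in all 6 samples. These 4 genes are 40% of the members and 2.72% of the 147 rows. How the constants came to be in the table was not tested, and each of the 4 genes is described both as deposited and with its constant subtracted.

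Parental and adapted cells were compared with limma on the 12656 rows that averaged 1 or more on this log2 scale over the 6 samples, with Benjamini-Hochberg adjustment over these rows and a threshold of 0.05. In this comparison 9 of the 10 genes were tested, and none of the 9 had a mean under 1 in either group. As deposited, 8 passed the threshold, where 56.9% of all tested rows did. Of these, 5 rose, against 30.7% of all tested rows, and 3 fell, against 26.2%. With the constants subtracted, 7 passed (56.3% of all rows), of which 4 rose (30.3% of all rows) and 3 fell (26.0% of all rows). The samples of the 2 groups did not overlap for 8 of the 9 genes, compared with 66.3% of all tested rows. In bulk RNA, fewer cells that express a gene and less of its RNA per cell cannot be told apart.

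By class, all 4 tested ATG8 genes rose as deposited, with a median log2 fold change of 1.13, and 3 of the 4 rose with the constants subtracted, with a median of 0.71. Of the 5 cargo receptors, OPTN rose, SQSTM1, NBR1 and CALCOCO2 fell, and TAX1BP1 did not pass the test, with a median of -0.25. Over the 9 tested genes the deposited values had a median of 0.56, which became 0.11 once the constants were subtracted. The median over all tested rows was 0.03 on both versions of the values.

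**Figure D1:**
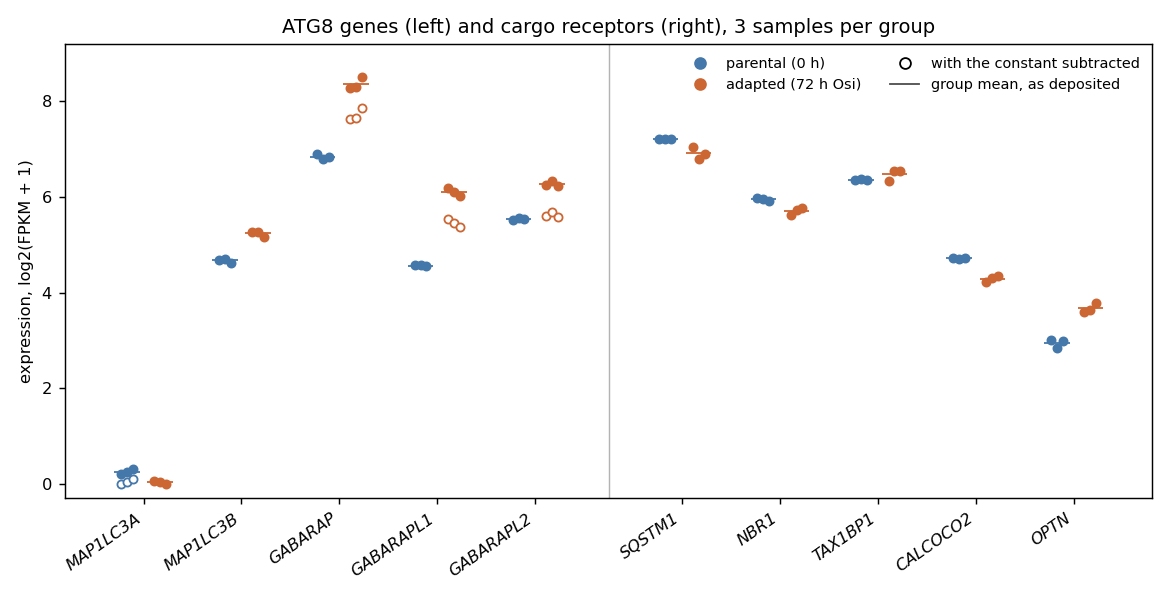
Expression of each gene, as log2(FPKM + 1), in the 3 parental (blue) and 3 adapted (orange) samples, with open circles for the values after the constant is subtracted and short lines for the group means as deposited. The adapted samples of GABARAP, GABARAPL1 and GABARAPL2 lie above the parental ones as deposited, and the open circles of GABARAPL2 come down to between 5.57 and 5.67, close to its parental samples at 5.51 to 5.55.

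The ATG8 proteins are made with extra residues at the C terminus, which an ATG4 protease removes to expose the glycine that is joined to the lipid. The ends of the 5 coding sequences are shown because they hold this shared site and show how the branches differ around it. Each runs to the stop codon in the last of 4 exons (GENCODE v29 transcripts, GRCh38), with the glycine codon in capitals.
MAP1LC3A (chr20:34559869-34559898, plus strand): tacgcctcccaggaaaccttcGGCttctga
MAP1LC3B (chr16:87403056-87403097, plus strand): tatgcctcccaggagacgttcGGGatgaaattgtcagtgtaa
GABARAP (chr17:7240854-7240883, minus strand): tacagtgacgaaagtgtctacGGTctgtga
GABARAPL1 (chr12:10221823-10221852, plus strand): tacagtgatgagagtgtctatGGGaaatga
GABARAPL2 (chr16:75577340-75577369, plus strand): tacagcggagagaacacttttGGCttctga
The glycine is residue 120 in both LC3 proteins and residue 116 in the 3 GABARAP proteins. MAP1LC3B has 5 residues after it and the other 4 proteins have 1. In the translated coding sequences, MAP1LC3A and MAP1LC3B were 79.2% identical, GABARAP and GABARAPL1 86.3%, and GABARAP and GABARAPL2 57.3%, while MAP1LC3B and GABARAP shared 29.6%.

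In the LC3 branch, MAP1LC3B (chr16:87383995-87404779, GRCh38) encodes the ATG8 protein most used as a marker of autophagosomes. Its log2(FPKM + 1) was 4.69, 4.71 and 4.62 in the parental samples and 5.27, 5.27 and 5.16 in the adapted samples. Every adapted sample was above every parental one. MAP1LC3B rose, with a log2 fold change of 0.56 ± 0.06 (SE; limma, adjusted p = 0.000244), from 24.6 ± 0.834 to 36.7 ± 1.59 FPKM (SD, n = 3). Its row is on the grid, so this value does not depend on a constant. Of the 50-base stretches of its transcript, 10% also occur in MAP1LC3B2, a gene whose protein is 99.2% identical and whose reads may be exchanged with it. MAP1LC3B2 was far lower, at 3.17 FPKM in parental and 3.48 FPKM in adapted cells, with groups that overlapped and a log2 fold change of 0.10 (95% interval -0.27 to 0.47, adjusted p = 0.617).

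MAP1LC3A (chr20:34546854-34560345), the other LC3 gene of the set, was close to absent. Its deposited log2(FPKM + 1) was 0.20, 0.24 and 0.31 in the parental samples and 0.05, 0.04 and 0 in the adapted samples, which is at most 0.238 FPKM. The mean was under 1, so MAP1LC3A was left out of the test. Without this filter it passed as deposited, with a log2 fold change of -0.22 ± 0.04 (SE; limma, adjusted p = 0.00563), and 9 of the 10 genes passed, 4 of them lower, where 36.6% of all 23902 rows did. As deposited the groups did not overlap. With the constant of 0.2 subtracted, the parental values became 0, 0.04 and 0.11, the groups overlapped, and the exact two-sided permutation test gave p = 0.7. Of the 10 genes, MAP1LC3A was the only one whose separation between the groups was lost in this way.

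In the GABARAP branch, GABARAP (chr17:7240014-7242770) encodes the founding member, first known as a partner of GABA type A receptors. It had the highest level of the 5 ATG8 genes. Its log2(FPKM + 1) was 6.89, 6.80 and 6.84 in the parental samples and, as deposited, 8.28, 8.30 and 8.51 in the adapted samples. The fold change as deposited was 1.52 ± 0.08 on the log2 scale (SE; limma, adjusted p = 1.11e-05), from 114 ± 3.73 to 329 ± 29.6 FPKM (SD, n = 3), a level 2.89 times that of parental cells. With 0.65 subtracted, the adapted values were 7.63, 7.65 and 7.86, still above every parental sample. The log2 fold change was then 0.87 ± 0.08 (SE; limma, adjusted p = 0.000118), a level of 209 FPKM and 1.84 times that of parental cells. GABARAP rose in both versions, by less with the constant removed: 1.95% of tested rows rose by at least as much as deposited, and 6.60% when subtracted. An overlapping protein-coding gene on the same strand, AC120057.2, is listed at 0 in all 6 samples. It accounts for most of the 42% of GABARAP's 50-base stretches that occur in another gene. Whether reads of these stretches were counted for GABARAP or left out was not tested.

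GABARAPL1 (chr12:10212458-10223130), the closest relative of GABARAP, was the most uniform ATG8 gene in parental cells, at 4.57, 4.57 and 4.55. The adapted samples were at 6.18, 6.10 and 6.01 as deposited, with a log2 fold change of 1.53 ± 0.06 (SE; limma, adjusted p = 4.17e-06). With 0.65 subtracted they were at 5.53, 5.45 and 5.36, and the log2 fold change was 0.88 ± 0.06 (SE; limma, adjusted p = 4.12e-05). Both versions put every adapted sample above every parental one. In linear terms, GABARAPL1 went from 22.7 to 67.6 FPKM as deposited and to 42.7 FPKM when subtracted. GABARAPL3, which shares 1.62% of the 50-base stretches of GABARAPL1, has no row.

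GABARAPL2 (chr16:75566351-75577881), also known as GATE-16, was the gene whose call rested on its constant. Its log2(FPKM + 1) was 5.51, 5.55 and 5.54 in parental cells and, as deposited, 6.26, 6.33 and 6.22 in adapted cells. As deposited it passed the test with a log2 fold change of 0.73 ± 0.06 (SE; limma, adjusted p = 5.48e-05). With 0.65 subtracted, the adapted values were 5.61, 5.67 and 5.57. The difference was then 0.08 (95% interval -0.05 to 0.21; limma, adjusted p = 0.235), so GABARAPL2 passed the test only with the constant in place. The lowest adapted value stayed just above the highest parental one.

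**Figure D2:**
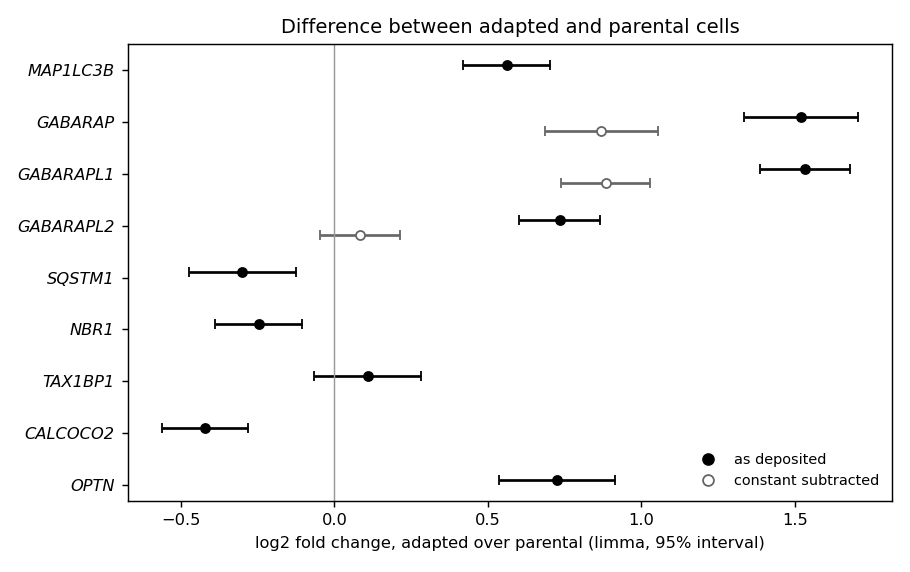
Log2 fold change of adapted over parental cells for the 9 tested genes, with 95% intervals from limma (n = 3 samples per group); black points are as deposited and open points have the constant subtracted. The open point of GABARAPL2 at 0.08 has an interval that includes 0, whereas those of GABARAP at 0.87 and GABARAPL1 at 0.88 do not.

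Another LC3 gene that is no member, MAP1LC3C, rose without a constant, from 1.34, 1.36 and 1.29 to 2.35, 3.01 and 2.83, a rise of 1.40 on the log2 scale (limma, adjusted p = 0.000333). Its level remained low, at 1.52 FPKM in parental and 5.76 FPKM in adapted cells. Of the 50-base stretches of its transcript, 7.68% also occur in other genes, 218 in all, and the part of their reads was not tested. MAP1LC3C binds CALCOCO2 in particular.

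As FPKM is scaled to transcript length, the 5 ATG8 genes were summed within each sample. The sum was 210, 205 and 205 FPKM in the parental samples and 495, 498 and 536 FPKM in the adapted samples as deposited, a ratio of 2.46. With the constants subtracted, the adapted sums were 328, 330 and 353 FPKM and the ratio 1.63. Both differences separated the groups, at an exact two-sided permutation p = 0.1, the smallest that 3 against 3 samples allow. The same p holds for all the shares and ratios that follow, except where another is given.

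GABARAP made up the largest share of the sum in every sample. Its share went from 55.1% ± 1.05 to 64.5% ± 2.90 (SD, n = 3) as deposited and to 62.1% ± 3.0 with the constants subtracted. The share of GABARAPL2 went from 21.9% to 14.96% and 14.3%, respectively, and that of GABARAPL1 from 10.96% to 13.3% and 12.7%. For these 3 genes the direction of the shift in composition was the same with and without the constants. The share of MAP1LC3B went from 11.9% ± 0.405 to 7.22% ± 0.613 as deposited but only to 10.9% ± 0.893 when subtracted. MAP1LC3A contributed 0.0922% at most on average, and its share with the constant subtracted overlapped between groups (exact permutation p = 0.5).

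The balance of the branches also depended on the constants. The log2 ratio of the summed GABARAP branch to the summed LC3 branch was 2.89, 2.82 and 2.93 in parental samples and 3.61, 3.61 and 3.84 in adapted samples as deposited, a difference of 0.81. With the constants subtracted the adapted ratios were 2.95, 2.96 and 3.19, a difference of 0.14. The lowest adapted ratio then stood beside a highest parental ratio of 2.94.

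**Figure D3:**
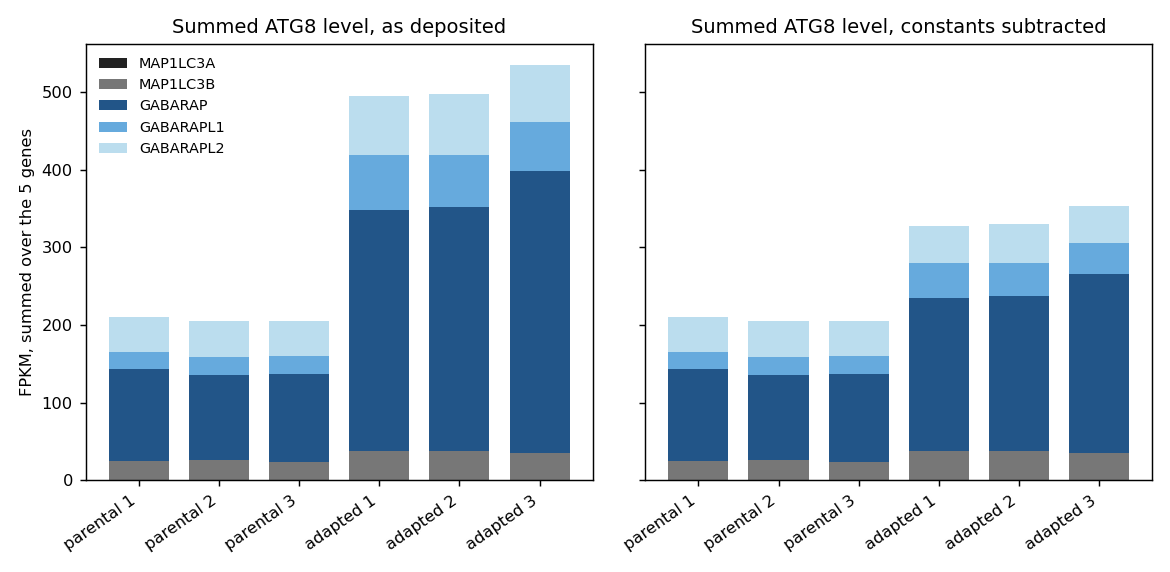
FPKM of the 5 ATG8 genes stacked by sample, as deposited (left) and with the constants subtracted (right), on the same axis from 0. The 3 adapted samples reach 495 to 536 FPKM on the left and 328 to 353 FPKM on the right, above the parental samples at 205 to 210 FPKM in both, and GABARAP is the largest segment throughout.

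The cargo receptors reach ATG8 through a short LC3-interacting region (LIR), whose core is 4 residues. The coding bases of a known core are shown for 4 receptors, because this is the sequence that joins both classes of genes. TAX1BP1 was not searched for a core. The 4 codons of each core are in capitals, with 9 bases on either side. They are read from GENCODE v29 transcripts on the plus strand of GRCh38.
SQSTM1, residues 338 to 341 (chr5:179833620-179833649, exon 7 of 8): gatgatgacTGGACCCATCTGtcttcaaaa
NBR1, residues 732 to 735 (chr17:43200325-43200354, exon 17 of 21): tcagaggatTACATCATCATCctgcctgag
CALCOCO2, residues 133 to 136 (chr17:48848426-48848455, exon 4 of 13): gaggaagacATCCTGGTTGTTaccactcag
OPTN, residues 178 to 181 (chr10:13112606-13112635, exon 6 of 16): gaagattccTTTGTTGAAATTaggatggct
The core of CALCOCO2 has no aromatic residue at its first position, unlike the other 3, and is known for its preference for LC3C. The serine codon just before the core of OPTN is the site that the kinase TBK1 phosphorylates.

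SQSTM1 (p62; chr5:179806398-179838078), which gathers ubiquitinated proteins into condensates, had the highest level of the 10 genes in parental cells. It was at 7.21 in all 3 parental samples on the log2(FPKM + 1) scale and at 7.04, 6.79 and 6.90 in the adapted samples. SQSTM1 fell by 0.30 ± 0.07 on the log2 scale (SE; limma, adjusted p = 0.0112), from 147 ± 0.121 to 120 ± 10.4 FPKM (SD, n = 3). All adapted samples were lower, and they spread more widely than the parental ones. Of the 10 genes, 8 overlap another annotated gene, and 13 of these 14 overlapping genes are on the other strand. The annotated span of SQSTM1 overlaps MGAT4B and MRNIP on the other strand. Whether counting used the strand is not given in the sources used here, and the part of reads from these genes was not tested. MGAT4B went from 6.03 to 6.60 and MRNIP from 4.18 to 3.58.

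NBR1 (chr17:43170481-43211689), a relative of SQSTM1 that works with it on aggregates and peroxisomes, also fell. Its values were 5.97, 5.96 and 5.92 in parental and 5.62, 5.73 and 5.76 in adapted samples. The log2 fold change was -0.25 ± 0.06 (SE; limma, adjusted p = 0.0106), without overlap between the groups. SQSTM1 and NBR1 had the smallest changes among the genes that passed the test as deposited.

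CALCOCO2 (NDP52; chr17:48830988-48866522), a receptor for bacteria and damaged mitochondria, had the largest fall of the 10 genes. It went from 4.72, 4.70 and 4.72 to 4.22, 4.30 and 4.35. The log2 fold change was -0.42 ± 0.06 (SE; limma, adjusted p = 0.000823), a level of 0.737 times that of parental cells, with 17.2% of tested rows falling by at least as much.

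OPTN (optineurin; chr10:13099449-13138308), a receptor in mitophagy that is activated by TBK1, went the other way and had the lowest level of the 5 receptors. It was at 3.004, 2.83 and 2.99 in parental and at 3.59, 3.64 and 3.77 in adapted samples. OPTN rose by a log2 fold change of 0.73 ± 0.08 (SE; limma, adjusted p = 0.000276), from 6.71 ± 0.504 to 11.7 ± 0.826 FPKM (SD, n = 3). Among the receptors it alone passed the test upwards.

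TAX1BP1 (chr7:27739331-27844564), which works with NBR1 and recruits early autophagy factors, did not pass the test. Its values were 6.36, 6.37 and 6.36 in parental and 6.33, 6.55 and 6.54 in adapted samples, so that adapted sample 1 was below the parental samples and the others above. The difference was 0.11 (95% interval -0.07 to 0.28; limma, adjusted p = 0.245). Without adapted sample 1 it was 0.18 with an adjusted p of 0.00847. For SQSTM1, adapted sample 1 was likewise the sample nearest to the parental level, and it was the farthest from it for NBR1 and CALCOCO2.

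The summed level of the 5 receptors was 322, 321 and 320 FPKM in parental and 287, 285 and 296 FPKM in adapted samples, a ratio of 0.900 with no overlap. None of the 5 rows holds a constant, so this sum is the same in both versions. The share of SQSTM1 in it went from 45.8% ± 0.150 to 41.4% ± 3.67 (SD, n = 3), and that of OPTN from 2.09% ± 0.158 to 4.06% ± 0.213. TAX1BP1 took 25.3% in parental and 30.4% in adapted cells. Set against the ATG8 sum, the log2 ratio of ATG8 to receptor level was -0.64 ± 0.02 in parental cells. In adapted cells the deposited values gave 0.82 ± 0.04, and subtracting the constants gave 0.22 ± 0.03. The summed mRNA of these 5 receptors thus exceeded that of the 5 ATG8 genes in all parental samples. The reverse held in all adapted samples in both versions. Other receptors are outside this sum, among them NCOA4, the receptor of ferritin, at 44.5 FPKM in parental and 162 FPKM in adapted cells. The ratio with such receptors included was not tested.

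The order of the levels changed in the same way. In parental cells it ran from SQSTM1 (147 FPKM) through GABARAP (114), TAX1BP1 (81.4), NBR1 (60.8), GABARAPL2 (45.4), CALCOCO2 (25.2), MAP1LC3B (24.6), GABARAPL1 (22.7) and OPTN (6.71) to MAP1LC3A (0.190). The ranges of CALCOCO2 and MAP1LC3B overlapped, and no other neighbours did. In adapted cells GABARAP stood first and SQSTM1 second in both versions, followed by TAX1BP1 at 88.0 FPKM. As deposited, GABARAPL2 (76.1 FPKM) and GABARAPL1 (67.6 FPKM) came next, above NBR1 (51.1 FPKM). With the constants subtracted, NBR1 stood above GABARAPL2 (48.1 FPKM) with overlapping ranges, and GABARAPL1 (42.7 FPKM) came after them. MAP1LC3B, CALCOCO2, OPTN and MAP1LC3A closed the order in both versions.

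Of 15 genes that process and conjugate ATG8, 9 passed the test, where 56.9% of all tested rows did. As deposited 5 rose and 4 fell, with a median log2 fold change of 0.09, and with the constants subtracted 4 rose, 3 fell and 8 did not pass, with a median of 0.01. ATG7, the E1-like enzyme that activates ATG8, fell by 0.54 ± 0.06 (SE; limma, adjusted p = 0.000241), and ATG3, the E2-like enzyme, by 0.24 ± 0.07 (SE; adjusted p = 0.0243). Other conjugation genes differed: ATG5 rose by 0.21 ± 0.07 (limma adjusted p = 0.0370), and ATG16L1 did not pass (-0.12, adjusted p = 0.188). ATG12 fell by 0.23 as deposited (limma adjusted p = 0.0468), and the value was -0.03 with 0.2 subtracted from the parental samples (adjusted p = 0.765). The row of ATG4A, a protease of the glycine site shown above, holds the constant of 0.2 in parental cells, and its log2 fold change was -0.45 as deposited and -0.25 subtracted (adjusted p = 0.00985). For ATG4C, another such protease, the value was 0.66 as deposited and 0.01 with 0.65 subtracted (adjusted p = 0.928). Of the ATG4 proteases without a constant, ATG4B rose by 0.29 ± 0.06 (SE; limma, adjusted p = 0.00581) and ATG4D did not pass (0.004, adjusted p = 0.965). WIPI1, which binds the phosphoinositide of the forming membrane, rose by 1.76 as deposited and 1.11 when subtracted. WDR45, of the same family, rose by 0.71 ± 0.06 without a constant. In all, 5 of the 15 rows held a constant.

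Of 20 other selective receptors, 19 were tested and 10 passed, beside 56.9% of all tested rows. Of these 6 rose and 4 fell, and the median of the list was 0.08. NCOA4, the receptor of ferritin, rose from 5.51 ± 0.03 to 7.34 ± 0.11 (SD, n = 3), a log2 fold change of 1.84 ± 0.07 (SE; limma, adjusted p = 3.59e-06) and a larger value than that of any of the 9 tested ATG8 genes and receptors. CALCOCO1, a receptor of endoplasmic reticulum and Golgi, rose by 0.72 ± 0.08, and YIPF3, a Golgi membrane receptor, by 0.50 ± 0.09. The 3 genes that fell most were BNIP3 with a log2 fold change of -1.92 ± 0.07, BNIP3L with -0.53 ± 0.09 and FKBP8 with -0.36 ± 0.07, each a receptor on mitochondria. FUNDC1 (0.08, adjusted p = 0.428) and BCL2L13 (0.09, adjusted p = 0.384), also receptors on mitochondria, did not pass. PHB2 passed the test as deposited only and is the 1 row of this list with a constant, so that 3 receptors fell when constants were subtracted.

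Kinases and partners of the receptors included 16 tested genes, of which 9 passed as deposited, beside 56.9% of all tested rows. In both versions 6 rose, 3 fell and 7 did not pass, with a median of 0.04. TBK1, the kinase of OPTN, was in the last group with a log2 fold change of -0.03, while of its adaptors TANK (-0.63 ± 0.07) and AZI2 (-0.45 ± 0.07) fell and TBKBP1 rose (0.29 ± 0.09, adjusted p = 0.0259). CSNK2A2, a catalytic subunit of casein kinase II, which phosphorylates SQSTM1, fell by 0.41 ± 0.05. CSNK2A1 (-0.18; limma, adjusted p = 0.444) and CSNK2B (-0.02, adjusted p = 0.805), of the same kinase, did not pass. ULK1, the kinase that starts autophagy, rose by 0.87 ± 0.08 (SE; limma, adjusted p = 0.000142). Its paralog ULK2 rose by 1.22 as deposited and 0.57 when subtracted, and ATG101, a subunit of the same complex, by 0.89 and 0.24 (adjusted p = 0.00996). RB1CC1 (0.07, adjusted p = 0.506) and ATG13 (0.02, adjusted p = 0.825), also subunits of this complex, did not pass.

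Among genes for fusion of the autophagosome with the lysosome, many of which bind ATG8, 13 of 18 rose (30.7% of all tested rows did), 2 fell (26.2% of all tested rows) and 3 did not pass, with a median of 0.42. With the constants subtracted, 12 rose and the median was 0.36. VPS41, a subunit of the HOPS tether, rose by 0.82 ± 0.10 (SE; limma, adjusted p = 0.0004). Of the same tether, VPS11 (0.45 ± 0.06), VPS18 (0.44 ± 0.06) and VPS33A (0.46 ± 0.07) also rose. VPS16, of this tether too, fell by 0.36 ± 0.08, and VPS39 did not pass (0.13, limma adjusted p = 0.138). STX17, the SNARE of the autophagosome, fell by 0.27 ± 0.06. Its lysosomal partner VAMP8 had a log2 fold change of 0.89 as deposited and 0.24 subtracted (adjusted p = 0.119). SNAP29 (0.40, limma adjusted p = 0.00678) and YKT6 (0.48, adjusted p = 0.000502), of the same list, rose without a constant. RUBCN, an inhibitor of autophagosome maturation, rose by 0.997 as deposited and 0.35 when subtracted (adjusted p = 0.0176).

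Of 12 transcription factors known to control autophagy genes, 10 were tested and 6 passed, beside 56.9% of all tested rows. Of these 2 rose and 4 fell, and the median of the list was -0.21. TFEB, a regulator of lysosome and autophagy genes, fell from 1.58 ± 0.08 to 1.16 ± 0.08 (SD, n = 3), a log2 fold change of -0.42 ± 0.09 (SE; limma, adjusted p = 0.00608). Its relative MITF rose by 0.37 ± 0.07, and TFE3, another relative, did not pass (-0.002, limma adjusted p = 0.983). TFE3 was at 17.5 FPKM in both groups, whereas TFEB was at 1.99 FPKM in parental and 1.24 FPKM in adapted cells. NFE2L2 (NRF2), a known regulator of SQSTM1, fell by 0.42 ± 0.07. Its part in the level of SQSTM1 was not tested. FOXO4 rose by 0.99 ± 0.08, while FOXO1 (-0.22, limma adjusted p = 0.0703) and FOXO3 (-0.07, adjusted p = 0.419) did not pass. E2F1 fell by 0.63 ± 0.13.

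**Figure D4:**
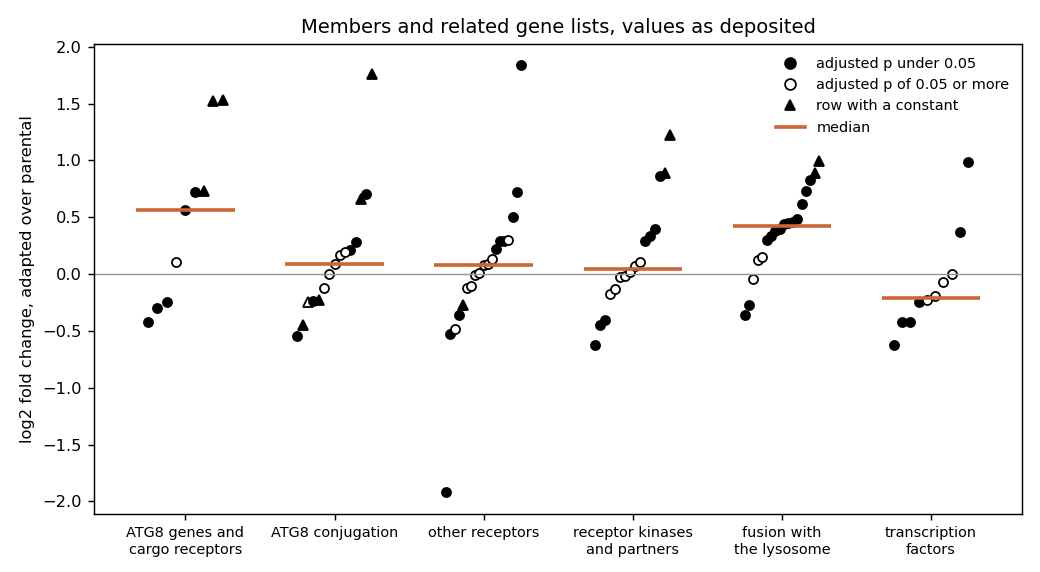
Log2 fold change of adapted over parental cells for the 9 tested ATG8 genes and cargo receptors and for the tested genes of 5 related lists, as deposited, with filled symbols for an adjusted p under 0.05, triangles for rows with a constant and orange lines for medians. The median is 0.56 for the first column, of which 3 points are triangles (0.11 with the constants subtracted), and 0.42 for the fusion genes, while those of the other lists lie between -0.21 and 0.09.

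The promoters of the genes were searched for short motifs of such factors, in windows of 300 bases from 250 before to 50 after each annotated start (RefSeq, GRCh38.p14). Windows were found for 9 of the 10 genes, 14 windows in all. Both strands were read. The letters CACGTG, the core bound by TFEB and related factors, were in none of the 14 windows and in 7.26% of all 35116 windows. The forkhead letters TGTTTAC were in 3.42% of all windows and in 1 of CALCOCO2. The letters TGACNNNGC, the core bound by NFE2L2, were in 13.3% of all windows and in 1 each of MAP1LC3B and CALCOCO2. TGANTCA, bound by AP-1 (7.71% of all windows), and TGATGNAA, bound by ATF4 with CEBP factors (3.62%), were in none. The matches are shown with the motif in capitals, on the plus strand.
CALCOCO2, TGTTTAC on the minus strand, 226 to 220 bases before the start (chr17:48830799-48830825): aaaaagaaaaGTAAACAgcttcttcca
CALCOCO2, TGACNNNGC on the minus strand, 129 to 121 bases before the start (chr17:48830896-48830924): cgctcctgggGCCCGGTCAcctgaacact
MAP1LC3B, TGACNNNGC on the plus strand, 46 to 38 bases before the start (chr16:87392280-87392308): gcgagtcaccTGACCAGGCtgcgggctga
CALCOCO2, with matches to both, fell, and MAP1LC3B rose. No window of SQSTM1 held any of the 5 motifs.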

How the data were processed

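The authors deposited 1 table of log2 values, 27216 rows by 6 samples, from RNA sequencing of H1975 cells; its columns were matched to the labels by group and replicate number, and 0 columns were left unused. The unit is not named and was taken as log2(FPKM + 1) from the values. The submitters' processing notes name hg38, STAR, Bowtie2 2.1.0 and edgeR with no role. The quantifier and annotation are not given in the sources used here. The authors tested expression with DESeq2, a model of counts, and counts were not analyzed here. In its place, limma 3.58.1 in R 4.3.3 (lmFit, eBayes with an intensity trend, unpaired, two-sided) was fitted to the deposited log2 values of rows with a mean of at least 1, with Benjamini-Hochberg adjustment over all rows tested. Fold changes include the added 1 and so understate the change of genes with low values. Sums and shares used the linear values and exact permutation tests. The fit and the search for constants were tested on simulated data.

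The members and gene lists were chosen with earlier results of these data known. Named were all members, other ATG8 genes and NCOA4. Of each related list, up to 3 genes with the largest rise and up to 3 with the largest fall were named. These were taken among genes past the threshold whose groups did not overlap. Genes overlapping members, TBK1, TBKBP1, FUNDC1, BCL2L13, PHB2, ATG4B, ATG4D, RB1CC1, ATG13, CSNK2A1 and CSNK2B were named after their values were seen. So were ATG5, ATG12, ATG16L1, TFE3, FOXO1, FOXO3, VPS11, VPS18, VPS33A, VPS39, SNAP29 and YKT6. Sequences and positions are from GENCODE v29 and RefSeq, read with Python 3.11.15. The fit was repeated with a pseudocount of 0.1, without the filter, at a mean of at least 3, after quantile normalization, an equal sum or median centring, under other variance moderation, with a replicate block, without each sample, with the constants subtracted, and without the rows that hold one or the unannotated rows.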

Additional observations from a re-analysis of the deposited data

How the results depend on the processing

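Of 396 values recomputed under alternatives, 386 kept their direction and their side of the threshold or moved by less than the limit set for them, and none turned direction. Counts have no direction to turn. The replicate block and other choices of variance moderation or of rows could change a p-value but not a fold change. A smaller fold change past the threshold counted as kept, as with the constants subtracted for GABARAP (1.52 to 0.87) and GABARAPL1 (1.53 to 0.88). GABARAPL2 lost its call with the constants subtracted (log2 fold change 0.083, adjusted p = 0.235). TAX1BP1 ranged from 0.0698 to 0.181 when 1 sample was left out and passed without adapted replicate 1 (adjusted p = 0.00847). SQSTM1 and NBR1 came closest to losing theirs, with adjusted p up to 0.0443 and 0.0486. Leaving out the rows with a constant, which removes 3 tested members, left 5 members past the threshold, 2 of them higher, and 5 genes of ATG8 conjugation. A mean of at least 3, which tests 7693 rows, left 4532 rows and 5 kinases and partners of receptors. Subtracting the constants changed the difference in share to -0.011 percentage points for MAP1LC3A and -0.967 for MAP1LC3B, and the difference in the log2 ratio of the branches to 0.14. Leaving out 1 sample gave 5763 to 8370 rows past the threshold. The 2 groups share replicate numbers, but deviations of same-numbered samples had correlations of -0.0509 to -0.0203, so no shared effect of the number was seen. These values cannot tell whether same-numbered samples were handled together. With the replicate block 6761 rows passed, and no member changed its call. The pairs of other numbers had correlations of -0.0362 to 0.0658. The depth is unknown, and MAP1LC3A is too low for a comparison.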
